A study of Homo sapiens with 6 samples.

Results

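The genes described here are 41 named human genes of nucleolar ribosome biogenesis and of the MYC network, out of 58735 genes in the deposited count table. They were listed by name and role, with no measured value in the rule, but with earlier results of these data known. The list holds 4 MYC network genes, 6 genes of RNA polymerase I transcription, 3 genes of the box C/D small nucleolar ribonucleoprotein (snoRNP), 6 nucleolar phosphoproteins and chaperones, 10 factors of small (40S) subunit processing and 12 factors of large (60S) subunit processing. The cells were LoVo, an established human colorectal cancer line, transfected with either a negative control siRNA (si-NC) or an siRNA against SRSF11 (si-SRSF11), an RNA-binding splicing factor of the serine- and arginine-rich group. Poly(A) RNA was sequenced in 3 libraries of each group, which the study describes as pairs of independent samples but the labels do not tie to separate cultures, so that p-values measure the spread between these libraries. All libraries came from the same line, the control cells were transfected too, and the sources used here do not say which of the study's SRSF11 siRNAs was sequenced.

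Ribosomes are built mainly in the nucleolus. RNA polymerase I transcribes the precursor of the large ribosomal RNAs, box C/D snoRNPs guide its methylation, and successive sets of processing factors cut and fold it into the 40S and 60S subunits. MYC, bound to its partner MAX, activates many of these genes through E-box sequences, whereas MNT, MXI1 and the MXD proteins pair with MAX and repress. The programme is known for its high activity in colorectal cancer cells, in which Wnt signalling drives MYC.

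Total counts per library were 14369525 to 15514404 in si-NC and 15688702 to 16685719 in si-SRSF11, and NOP2 was the only one of the 41 genes with fewer than 100 counts in a library. SRSF11 itself fell to 57.2% of its si-NC level, from 86.3 ± 1.89 to 49.4 ± 0.950 CPM (counts per 1000000 of the library size, corrected by the trimmed mean of M-values, TMM; here and elsewhere ± gives the SD over 3 libraries), a log2 fold change of -0.80 with SE 0.054, adjusted p = 6.1e-10. Pairwise correlations of log2 CPM were 0.994 within a group in all 6 pairs and 0.989 to 0.990 between groups in 9 pairs. Mitochondrially encoded genes took 7.003% to 7.251% of the counts in si-NC and 8.29% to 8.51% in si-SRSF11. The 10 colorectal epithelium markers passed the filter and summed to 5600 to 5933 CPM in si-NC and 5706 to 6060 CPM in si-SRSF11, although KRT20 had only 6 to 20 counts. Of these 10 markers CDX1 (0.31, SE 0.065, adjusted p = 0.0012) and CDX2 (0.40, SE 0.075, adjusted p = 0.00038), both intestinal transcription factors, rose on the log2 scale without overlap between groups, and the other 8 did not pass the test. The part of this movement in the results was not tested. Of 7 blood and fibroblast markers, PTPRC and DCN were at 0 in all libraries, and the sum was 12.8 to 14.1 CPM in si-NC and 11.3 to 14.4 CPM in si-SRSF11, most of it COL1A1.

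All 41 genes had at least 10 counts in at least 3 libraries and were tested among 15801 genes that did, and their differences were small and mostly upward. With si-SRSF11, 19 of the 41 rose, 1 fell and 21 did not pass the test at an adjusted p of 0.05. That is 46.3% higher, where 13.2% of all tested genes were higher, 11.4% were lower and 24.6% were called in either direction. NOLC1, MYBBP1A, NCL, NOP56, GNL3, DDX56, LYAR and UTP20 rose by 0.32 to 0.58 on the log2 scale, and the only gene that fell was MXI1. The median log2 fold change of the 41 genes was 0.14, with a range of -0.20 to 0.58, against 0.0015 over all tested genes, whose quartiles were -0.17 and 0.16. A fold change above 0 was found for 35 of the 41, and none passed 1 on the log2 scale in either direction. In 24 of the 41 (58.5%) the CPM of the 2 groups did not overlap, 23 of them higher in si-SRSF11, where 38.8% of all tested genes had such a gap. Among the 12770 protein-coding genes tested 27.4% were called, 15.4% higher and 12.04% lower, and 41.8% did not overlap. None of these shares was matched to the 41 genes by level, and the filter let in genes with as few as 10 counts in 3 libraries.

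**Figure D1:**
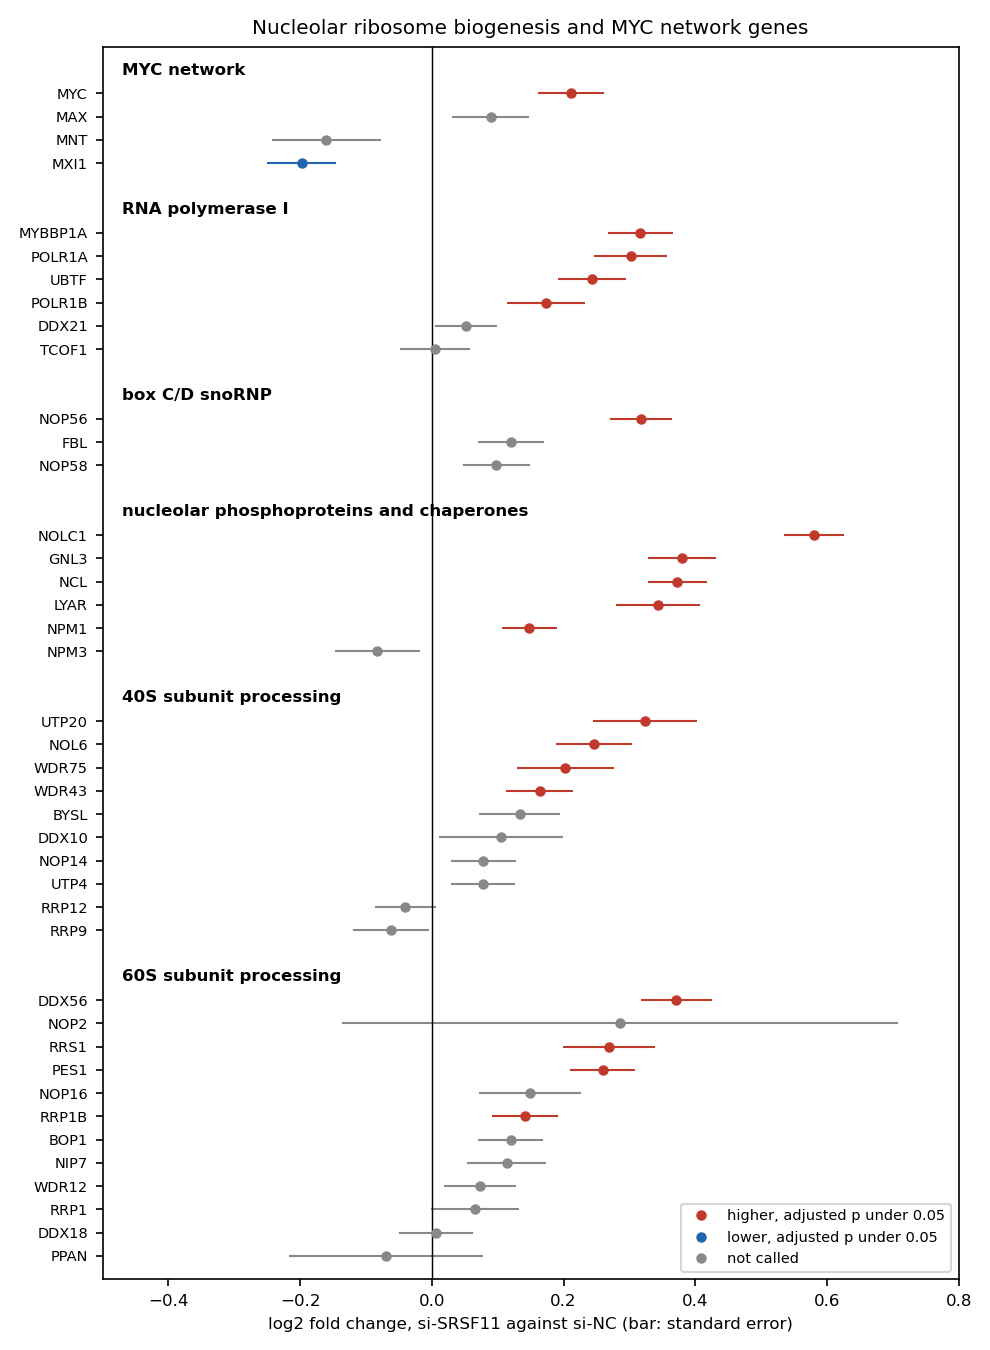
Log2 fold change in CPM, si-SRSF11 against si-NC, of each of the 41 genes, grouped by role, with bars of 1 standard error from the edgeR fit and colours for the call at an adjusted p of 0.05. Points lie from -0.20 for MXI1 to 0.58 for NOLC1, and 35 of the 41 lie to the right of 0, as do 2 of the 4 in the MYC network.

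The number that rose was 15 to 19 under the scalings tried. Scaling to library size alone made 40.99% of all calls higher, against 53.6% with TMM, shifted the median of all tested genes to -0.033 and left 15 of the 41 genes higher and 1 lower, where 10.05% of all tested genes were higher. With the mitochondrial genes removed before TMM, a setting added after the data were seen, 18 genes were higher and 1 was lower. In that setting 12.7% of all tested genes were higher. The 37 nucleolar genes together summed to 4613, 4529 and 4627 CPM in the 3 si-NC libraries and to 5176, 5301 and 5262 CPM in the 3 si-SRSF11 libraries. All 3 si-SRSF11 sums lay above all 3 si-NC sums. Such sums lean on the most abundant genes, as NPM1 and NCL alone made 26.5% to 28.2% of the counts of the 41 genes. These are shares of bulk polyadenylated RNA, so that fewer cells of a kind and less RNA per cell cannot be told apart, and RNA per cell was not measured.

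The promoter sequences are shown because MYC and its partners act through the E-box, whose core is CACGTG, the same letters on both strands. RefSeq windows of 300 bases, 250 before to 50 after an annotated start (build GRCh38.p14), were found for 32 of the 41 genes, and 15 of these 32 (46.9%) held the core, where 2396 of 27305 gene symbols with a window (8.78%) and 1329 of 10601 tested genes with one (12.5%) did. Per window, the share was 15 of 42 for the 41 genes and 2548 of 35116 (7.26%) for all windows. Every one of the 15 copies lay between 193 bases before and 35 bases after the start, with a median position 6 bases after it, and 14 were within 100 bases. The core and 10 bases on each side, or up to the end of the window, follow for these 15 promoters on the gene's strand, 5′ to 3′, with the core in capitals. The first 7 belong to genes that rose and the remaining 8 to genes that did not pass the test.
MYBBP1A: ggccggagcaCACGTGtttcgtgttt
GNL3: cttcagttcaCACGTGgcgccagcgg
LYAR: gcggcgagtcCACGTGctccccgcgg
NOL6: catttccgccCACGTGggaagctatg
UTP20: tttttccgtcCACGTGacccactcag
WDR43: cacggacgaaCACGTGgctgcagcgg
PES1: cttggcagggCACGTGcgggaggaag
MNT: ctgcccgggcCACGTGtgcgcgcgcc
DDX21: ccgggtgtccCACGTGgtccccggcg
FBL: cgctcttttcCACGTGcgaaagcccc
NOP14: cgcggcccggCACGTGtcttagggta
RRP9: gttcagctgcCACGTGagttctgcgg
UTP4: agcgcgcgcgCACGTGgggccggggc
BYSL: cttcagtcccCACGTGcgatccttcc
NOP2: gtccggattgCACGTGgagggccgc

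The core was present in 7 of 15 genes with a window that rose (46.7%) and in 8 of 16 that did not pass the test (50%). Among 146 other genes of the pathway, described further on, it was present in 42 of 126 with a window (33.3%), in 15 of 36 of those called higher (41.7%) and in 24 of 82 of those not called (29.3%). These shares were not tested against each other. Over all tested genes it was present in 14.6% of those called higher and 12.1% of those called lower. NCL and NOP56 rose and had no copy in these windows, which says only that these letters are not there. Whole windows are shown for the 3 genes with a copy and the smallest adjusted p, with the core in capitals again. They are on the minus strand at chr17:4555335-4555634 for MYBBP1A, on the plus strand at chr3:52685782-52686081 for GNL3 and on the minus strand at chr4:4289972-4290271 for LYAR.
MYBBP1A: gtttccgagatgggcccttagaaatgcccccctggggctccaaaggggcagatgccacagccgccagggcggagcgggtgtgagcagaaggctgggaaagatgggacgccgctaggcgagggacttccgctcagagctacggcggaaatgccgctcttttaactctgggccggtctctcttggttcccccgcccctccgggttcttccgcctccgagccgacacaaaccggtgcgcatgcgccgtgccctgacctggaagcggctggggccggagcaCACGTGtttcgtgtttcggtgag
GNL3: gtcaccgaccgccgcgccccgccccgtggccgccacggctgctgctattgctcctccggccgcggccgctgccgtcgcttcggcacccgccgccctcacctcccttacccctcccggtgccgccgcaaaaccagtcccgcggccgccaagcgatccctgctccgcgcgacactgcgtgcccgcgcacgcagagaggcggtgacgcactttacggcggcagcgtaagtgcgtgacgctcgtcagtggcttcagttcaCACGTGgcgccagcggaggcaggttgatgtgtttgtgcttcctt
LYAR: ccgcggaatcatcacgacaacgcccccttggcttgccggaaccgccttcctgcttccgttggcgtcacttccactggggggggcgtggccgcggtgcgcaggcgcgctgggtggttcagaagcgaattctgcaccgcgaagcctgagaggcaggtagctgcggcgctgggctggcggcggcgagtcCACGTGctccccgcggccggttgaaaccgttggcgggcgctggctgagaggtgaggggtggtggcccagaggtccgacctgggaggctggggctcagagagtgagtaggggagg

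Among the nucleolar phosphoproteins and chaperones 5 of 6 rose, where 13.2% of all tested genes did, and their median log2 fold change was 0.36. NOLC1 (chromosome 10, 102152176 to 102163871, plus strand), a phosphoprotein of the nucleolus and Cajal bodies that binds snoRNPs, had 2405, 2440 and 2496 counts in the si-NC libraries and 3868, 3943 and 3874 in the si-SRSF11 libraries. It rose from 162 ± 3.14 to 242 ± 4.86 CPM (log2 fold change 0.58, SE 0.046, adjusted p = 6.4e-09). This was the largest change among the 41, and the lowest si-SRSF11 library was far above the highest si-NC library. NCL, or nucleolin (chromosome 2, 231453531 to 231483641, minus strand), one of the most abundant nucleolar proteins, had 7460, 8046 and 8242 counts in si-NC and 10312, 11450 and 10977 in si-SRSF11. Its level went from 523 ± 8.55 to 678 ± 23.1 CPM (log2 fold change 0.37, SE 0.044, adjusted p = 2.0e-06), again with no overlap. GNL3, or nucleostemin, a nucleolar GTP-binding protein whose promoter is printed above, had 1107, 1212 and 1209 counts in si-NC against 1515, 1678 and 1697, and rose from 77.8 ± 1.72 to 101 ± 3.93 CPM (log2 fold change 0.38, SE 0.051, adjusted p = 1.1e-05). LYAR, a nucleolar zinc finger protein, had 631, 629 and 667 counts in si-NC and 817, 947 and 840 in si-SRSF11, which gave 42.5 ± 1.08 and 53.9 ± 3.70 CPM (log2 fold change 0.34, SE 0.064, adjusted p = 0.00042). The groups did not overlap for either gene.

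NPM1 and NPM3 belong to the same family of histone-binding chaperones, and they differed in their values. NPM1 (chromosome 5, 171387116 to 171411137, plus strand), which is described here as the gene with the highest level although 4 others of its role had smaller adjusted p-values, had 12012, 12543 and 13148 counts in si-NC and 14188, 15017 and 15272 in si-SRSF11. It rose from 831 ± 10.1 to 921 ± 14.7 CPM (log2 fold change 0.15, SE 0.042, adjusted p = 0.011) without overlap. The call was lost without si-NC replicate 1 or si-NC replicate 2, at adjusted p = 0.071 and 0.061. NPM3 had a log2 fold change of -0.08 (SE 0.064, adjusted p = 0.38), and its groups overlapped. The difference between the 2 changes was not tested. Of all 100-base windows along the longest annotated protein-coding transcript of NPM1, 21.9% also occurred in 7 other annotated genes. The one with the most shared windows, the pseudogene NPM1P27, had 200 to 291 counts in si-NC and 252 to 355 in si-SRSF11. Part of the NPM1 reads could have been split or left out. How reads with several matches were counted is not given in the sources used here, and the counts of the remaining genes were not read.

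**Figure D2:**
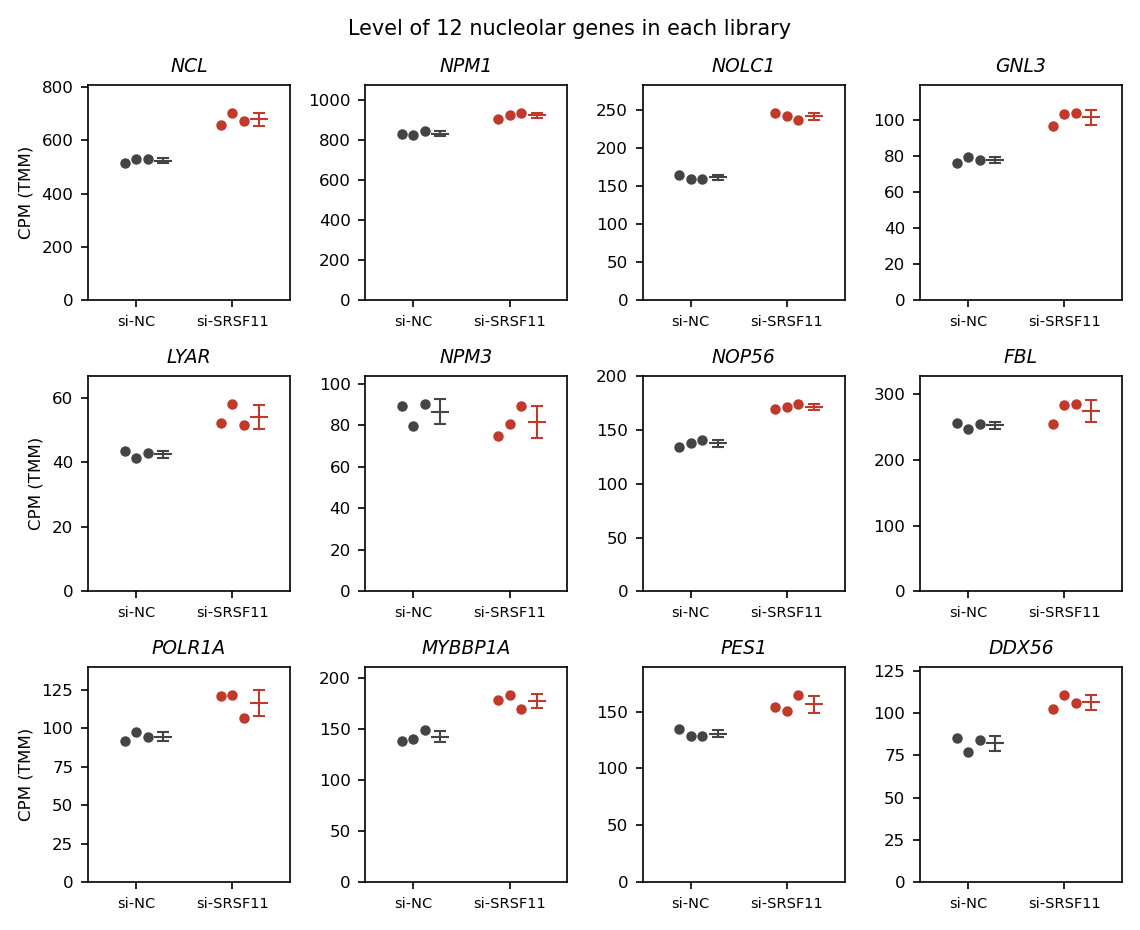
CPM (TMM scaled, axes from 0) of 12 of the nucleolar genes in each of the 3 si-NC and 3 si-SRSF11 libraries, 1 point a library, with the mean and SD of each group beside the points. The groups stand apart for NCL, NPM1, NOLC1, GNL3, LYAR, NOP56, POLR1A, MYBBP1A, PES1 and DDX56 and mix for NPM3 and FBL.

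Genes of RNA polymerase I transcription rose in 4 of 6 cases, against 13.2% of all tested genes, with a median log2 fold change of 0.21. POLR1A, the largest subunit of the polymerase, had 1333, 1487 and 1476 counts in si-NC and 1901, 1985 and 1747 in si-SRSF11. Its level rose from 94.7 ± 2.96 to 117 ± 8.48 CPM (log2 fold change 0.30, SE 0.055, adjusted p = 0.00032). POLR1B, the second largest subunit, had 750, 888 and 883 counts in si-NC and 996, 1031 and 996 in si-SRSF11 and rose from 55.5 ± 3.48 to 62.6 ± 1.43 CPM (log2 fold change 0.17, SE 0.060, adjusted p = 0.037). UBTF, the factor that binds along the ribosomal DNA and keeps it open, had 1303, 1254 and 1402 counts in si-NC and 1563, 1726 and 1702 in si-SRSF11 and rose from 87.3 ± 4.27 to 103 ± 3.21 CPM (log2 fold change 0.24, SE 0.052, adjusted p = 0.0015). For all 3 genes every si-SRSF11 library was above every si-NC library. The call of POLR1B held in 9 of 16 alternatives. It was lost with DESeq2, library size scaling and no filter beyond 1 count, and without si-NC replicate 1 or 3 or si-SRSF11 replicate 1 or 2, where its adjusted p was 0.069 to 0.22. MYBBP1A, a nucleolar protein bound to the polymerase I machinery whose promoter is among those printed, had 2014, 2130 and 2319 counts in si-NC and 2793, 2990 and 2778 in si-SRSF11. It went from 142 ± 5.43 to 177 ± 6.84 CPM (log2 fold change 0.32, SE 0.049, adjusted p = 5.8e-05), also without overlap.

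TCOF1, or treacle, which recruits the polymerase, and DDX21, an RNA helicase that links transcription and processing, did not pass the test. TCOF1 had a log2 fold change of 0.0048 (SE 0.052, adjusted p = 0.96), with the sign turning under 3 scalings, and DDX21 of 0.05 (SE 0.047, adjusted p = 0.46). The libraries of the 2 groups overlapped for both genes.

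In the box C/D snoRNP, NOP56 rose and the other 2 proteins did not pass the test. NOP56, a core protein that holds the particle together, had 1940, 2103 and 2192 counts in si-NC and 2644, 2781 and 2845 in si-SRSF11, and its level rose from 137 ± 3.53 to 171 ± 2.73 CPM (log2 fold change 0.32, SE 0.047, adjusted p = 2.8e-05). All si-SRSF11 libraries exceeded all si-NC libraries. NOP58, its paralogue in the same particle, had 1120, 1192 and 1175 counts in si-NC and 1292, 1323 and 1358 in si-SRSF11 and 76.9 ± 1.51 and 82.3 ± 0.951 CPM (log2 fold change 0.10, SE 0.051, adjusted p = 0.17), a difference whose groups did not overlap but that missed the threshold. FBL, or fibrillarin, the methyltransferase, had a log2 fold change of 0.12 (SE 0.050, adjusted p = 0.087), with overlapping groups. Without si-SRSF11 replicate 1 it was 0.17 and passed the test, at adjusted p = 0.011. Several of these genes hold snoRNA genes within their bounds: 23 annotated snoRNA genes, with overlapping entries in GNL3, lie inside 6 of the 41 genes. Of these 6, 4 (GNL3, NCL, NOP56 and WDR43) were called higher, where 46.3% of the 41 and 13.2% of all tested genes were. Whether holding a snoRNA gene goes with the change was not tested.

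Of the 10 factors of 40S processing, which form or follow the early U3-containing processome, 4 rose and 6 did not pass the test. That is 40% higher, against 13.2% of all tested genes, and the median log2 fold change of the 10 was 0.12. UTP20, a very large scaffold protein, had 341, 345 and 348 counts in si-NC and 475, 451 and 451 in si-SRSF11 and rose from 22.8 ± 0.6002 to 28.5 ± 1.54 CPM (log2 fold change 0.32, SE 0.079, adjusted p = 0.0043). NOL6 had 969, 955 and 1044 counts in si-NC and 1298, 1198 and 1249 in si-SRSF11 and rose from 65.4 ± 2.36 to 77.6 ± 4.74 CPM (log2 fold change 0.25, SE 0.058, adjusted p = 0.0031). WDR43 and WDR75 belong to the subcomplex that links processing to polymerase I transcription. WDR43 had 1221, 1256 and 1298 counts in si-NC and 1532, 1474 and 1494 in si-SRSF11 and rose from 83.2 ± 0.777 to 93.3 ± 3.95 CPM (log2 fold change 0.16, SE 0.051, adjusted p = 0.023). WDR75 had 442, 451 and 515 counts in si-NC and 526, 613 and 586 in si-SRSF11 and rose from 31.0 ± 1.77 to 35.7 ± 2.04 CPM (log2 fold change 0.20, SE 0.073, adjusted p = 0.047). None of these 4 genes had overlapping groups. The call of WDR43 held in 10 of 16 alternatives and was lost with DESeq2 and library size scaling, and without any 1 of the si-NC libraries or si-SRSF11 replicate 1 (adjusted p 0.065 to 0.091). The call of WDR75 held in only 5 of 16. It was lost with DESeq2, voom, library size or upper quartile scaling, no filter beyond 1 count, protein-coding genes only and TMM without mitochondrial genes, and without si-NC replicate 1 or 2 or si-SRSF11 replicate 2 or 3 (adjusted p 0.079 to 0.17). UTP4, of the same subcomplex, had a log2 fold change of 0.08 (SE 0.049, adjusted p = 0.26), NOP14 of 0.08 (SE 0.049, adjusted p = 0.27) and DDX10, a helicase, of 0.11 (SE 0.095, adjusted p = 0.46). RRP9, which binds U3 snoRNA, had -0.06 (SE 0.058, adjusted p = 0.48) and RRP12, which acts in export, -0.04 (SE 0.046, adjusted p = 0.57). For these 5 genes the groups overlapped. BYSL, a late 40S factor, had 0.13 (SE 0.061, adjusted p = 0.12), with groups that did not overlap.

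Of the 12 factors of 60S processing 4 rose (33.3%, against 13.2% of all tested genes), 8 did not pass the test and the median was 0.13. DDX56, an RNA helicase, had 1236, 1176 and 1316 counts in si-NC and 1604, 1805 and 1727 in si-SRSF11 and rose from 82.2 ± 4.33 to 106 ± 4.27 CPM (log2 fold change 0.37, SE 0.054, adjusted p = 2.4e-05). PES1, BOP1 and WDR12 form the PeBoW complex, which is needed to mature the large subunit RNAs. PES1 had 1954, 1960 and 2007 counts in si-NC and 2408, 2452 and 2692 in si-SRSF11 and rose from 131 ± 3.36 to 156 ± 7.47 CPM (log2 fold change 0.26, SE 0.049, adjusted p = 0.00049), whereas BOP1 had a log2 fold change of 0.12 (SE 0.049, adjusted p = 0.082) and WDR12 of 0.07 (SE 0.055, adjusted p = 0.36). Groups did not overlap for PES1 and BOP1 and overlapped for WDR12, and whether the 3 partners differed in their change was not tested. RRS1, which helps bring the 5S particle into the subunit, had 531, 546 and 640 counts in si-NC and 724, 697 and 780 in si-SRSF11 and rose from 37.8 ± 2.80 to 45.6 ± 2.53 CPM (log2 fold change 0.27, SE 0.069, adjusted p = 0.0065). RRP1B had 1689, 1727 and 1719 counts in si-NC and 2066, 1997 and 1966 in si-SRSF11 and rose from 113 ± 3.05 to 125 ± 6.09 CPM (log2 fold change 0.14, SE 0.050, adjusted p = 0.040), with no overlap for either gene. The call of RRP1B held in 6 of 16 alternatives. It was lost with DESeq2, library size or upper quartile scaling, no filter beyond 1 count and protein-coding genes only, and without any 1 of the si-NC libraries or si-SRSF11 replicate 1 or 2, where its adjusted p was 0.057 to 0.16. Its paralogue RRP1 had 0.07 (SE 0.067, adjusted p = 0.52), with overlap. NOP16, NIP7 and DDX18 did not pass the test, at 0.15, 0.11 and 0.0063 on the log2 scale, and the sign of DDX18 turned under 2 scalings. Of these 3 genes NIP7 alone had groups that did not overlap.

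For NOP2 and PPAN the counts say little about the gene. NOP2, an RNA methyltransferase of the large subunit, had 15, 16 and 9 counts in si-NC and 22, 23 and 7 in si-SRSF11, and 54.4% of its exon bases are shared on the same strand with the annotated gene AC006064.6, which had 0 counts in all libraries. Its log2 fold change of 0.29 (SE 0.42, adjusted p = 0.67) rests on these few reads, and its groups overlapped. PPAN had 149, 127 and 115 counts in si-NC and 107, 140 and 151 in si-SRSF11, and 59.8% of its exon bases lie in the read-through gene PPAN-P2RY11, also at 0 in all libraries. With a log2 fold change of -0.07 (SE 0.15, adjusted p = 0.78) the groups of PPAN overlapped. The library kit named in the labels does not mark strand, so that reads where genes overlap on opposite strands cannot be told apart either. NOLC1 and NCL shared no exon bases with another annotated gene, and 22 of the 41 genes shared none.

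**Figure D3:**
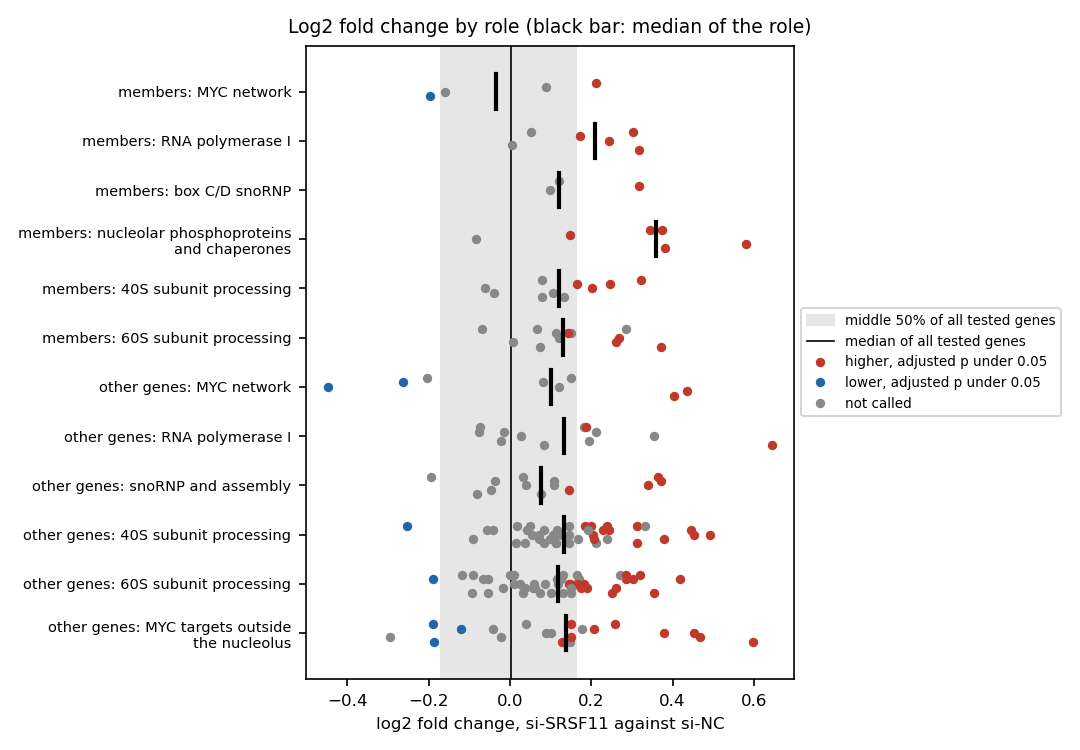
Log2 fold change, si-SRSF11 against si-NC, of each gene by role, for the 41 genes (called members) and the other genes of the same pathway, with a black bar at the median of each set, colours for the call, and a grey band over the middle of all tested genes, between the quartiles -0.17 and 0.16. The highest median is that of the nucleolar phosphoproteins and chaperones, 0.36, and the 4 medians of the 40S and 60S sets lie between 0.12 and 0.13.

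In the MYC network, MYC rose, the repressor MXI1 fell, and MAX and MNT did not pass the test. MYC had 3859, 3793 and 4363 counts in si-NC and 4799, 4815 and 5193 in si-SRSF11. Its level rose from 265 ± 15.2 to 307 ± 11.1 CPM (log2 fold change 0.21, SE 0.050, adjusted p = 0.0035), and all si-SRSF11 libraries were above all si-NC libraries. MAX, the partner that MYC needs to bind DNA, had 783, 802 and 831 counts in si-NC and 841, 939 and 958 in si-SRSF11, or 53.3 ± 0.611 and 56.7 ± 2.63 CPM (log2 fold change 0.09, SE 0.058, adjusted p = 0.29), with overlap. MXI1, which pairs with MAX and represses, had 1270, 1299 and 1329 counts in si-NC and 1216, 1178 and 1224 in si-SRSF11 and fell from 86.0 ± 1.26 to 74.96 ± 2.63 CPM (log2 fold change -0.20, SE 0.052, adjusted p = 0.0074). The highest si-SRSF11 library was below the lowest si-NC library. MNT, another MAX-binding repressor, had 565, 528 and 515 counts in si-NC and 528, 547 and 458 in si-SRSF11 and 35.5 ± 3.03 and 31.8 ± 3.24 CPM (log2 fold change -0.16, SE 0.082, adjusted p = 0.17), with overlapping groups.

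The other 8 tested genes of the network, outside the list of 41, gave 2 that rose and 2 that fell. Over all tested genes 13.2% rose and 11.4% fell, and with so few genes the counts were not compared with these shares. MXD4, a repressor of the same kind as MXI1, rose with a log2 fold change of 0.44 (SE 0.069, adjusted p = 6.8e-05), and so did MGA, a large MAX-binding repressor, at 0.40 (SE 0.095, adjusted p = 0.0031). MXD3 and MXD1, also repressors, fell, with -0.45 (SE 0.10, adjusted p = 0.0028) and -0.26 (SE 0.077, adjusted p = 0.015). Of the exon bases of MXD3, 40.4% are shared with PRELID1 and RAB24. The remaining 4 genes did not pass the test.

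**Figure D4:**
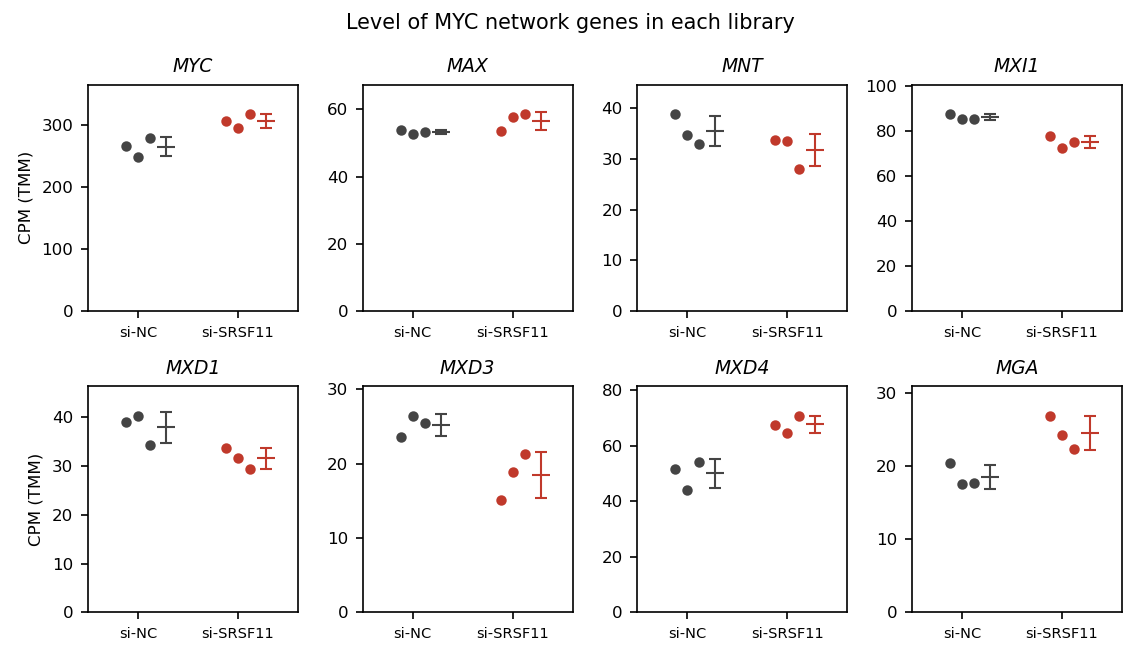
CPM (TMM scaled, axes from 0) of MYC, MAX, MNT, MXI1, MXD1, MXD3, MXD4 and MGA in each of the 3 si-NC and 3 si-SRSF11 libraries, 1 point a library, with the mean and SD of each group beside the points. MYC, MXD4 and MGA are higher and MXI1, MXD1 and MXD3 lower in all 3 si-SRSF11 libraries than in any si-NC library.

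In the wider pathway more genes rose than fell. Besides the 41, 146 genes of the same roles and of MYC targets outside the nucleolus were listed, also with earlier results of these data known. Of these, 143 were tested, and 44 rose, 7 fell and 92 did not pass the test, with a median log2 fold change of 0.12. The number lower was 4 without si-NC replicate 1. The share higher was 30.8%, against 13.2% of all tested genes. In 73 of the 143 (51.0%) the groups did not overlap, against 38.8% of all tested genes and 41.8% of the protein-coding ones. In RNA polymerase I transcription 2 of 12 rose, the 2 being CD3EAP, a polymerase subunit, at 0.65 (SE 0.16, adjusted p = 0.0052) and TAF1D, of its promoter factor, at 0.19 (SE 0.056, adjusted p = 0.017). CD3EAP shares 45.1% of its exon bases with ERCC1 and PPP1R13L. Among snoRNP genes 4 of 13 rose, with NHP2 at 0.37 (SE 0.051, adjusted p = 1.6e-05) and GAR1 at 0.34 (SE 0.068, adjusted p = 0.00081), both core proteins of the box H/ACA particle. NHP2 shares 27.4% of its exon bases with RMND5B.

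Of 44 further 40S factors 13 rose (29.5%) and 1 fell (2.27%), where 13.2% of all tested genes rose and 11.4% fell. BMS1, a GTPase of the processome, rose by 0.31 (SE 0.052, adjusted p = 0.00012) and UTP14A by 0.38 (SE 0.073, adjusted p = 0.00054) on the log2 scale, and DDX52, a helicase, had -0.25 (SE 0.063, adjusted p = 0.0050). Of 46 further 60S factors 14 rose (30.4%) and 1 fell (2.17%). DDX54 had a log2 fold change of 0.42 (SE 0.057, adjusted p = 1.1e-05) and NOC2L of 0.32 (SE 0.051, adjusted p = 8.2e-05), while EIF6, which keeps the 60S subunit from joining too early, had -0.19 (SE 0.061, adjusted p = 0.025), with overlapping groups and 17.4% of its exon bases shared with AL121753.1. The MYC targets outside the nucleolus gave 9 higher (45%) and 3 lower (15%) of 20 tested, and the share lower was near the 11.4% of all tested genes. HSPD1, a mitochondrial chaperonin, rose by 0.47 (SE 0.042, adjusted p = 4.7e-08) and CAD, of pyrimidine synthesis, by 0.45 (SE 0.049, adjusted p = 6.4e-07), whereas ODC1, the first enzyme of polyamine synthesis, had -0.19 (SE 0.045, adjusted p = 0.0033) and GART, of purine synthesis, -0.19 (SE 0.046, adjusted p = 0.0045).

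Levels were compared between genes per kilobase of annotated exon. In si-NC the highest levels were those of NPM1 at 217 CPM per kb, FBL at 116, NPM3 at 93.2, MYC at 88.2, NCL at 75.5 and BOP1 at 73.3. The lowest was that of NOP2 at 0.189, which says little about that gene because it shares much of its sequence with AC006064.6. NPM3 and MYC overlapped in si-NC, as did NCL and BOP1, so that neither pair had an order beyond its spread. In si-SRSF11 MYC had rank 3 at 102 CPM per kb, NCL rank 4 at 97.8 and NPM3 rank 5 at 87.9, but the ranges of MYC and NCL overlapped, as did those of NCL and NPM3 and of NPM3 and BOP1 (rank 6), so that these neighbours had no order beyond their spread. NOLC1 went from rank 8 at 40.8 CPM per kb to rank 7 at 61.0, next to DDX21 at 60.1, with overlapping ranges.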

How the data were processed

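Poly(A) RNA of LoVo cells, 3 si-NC and 3 si-SRSF11 libraries, was sequenced from both ends. The table deposited by the authors holds counts for each gene, neither normalized nor filtered. The build named in the submitters' processing notes is hg38. The aligner and counter are not given in the sources used here. The gene_length column, in bases, is not a measured value. It was used only for levels per kilobase.

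All 6 libraries were fitted in 1 model with edgeR 4.0.16 (R 4.3.3, quasi-likelihood test, TMM) over genes that reached 10 counts in 3 or more libraries, with Benjamini-Hochberg adjustment over all of them. SE is the absolute log2 fold change divided by the square root of F. Alternatives used DESeq2 1.42.0, limma 3.58.1 (voom), other scalings, filters and thresholds, a replicate block and each library left out. The fits were tested on simulated data. Exon overlaps came from GENCODE 29 and promoter windows from RefSeq. With 3 libraries a group, an exact permutation test of 1 gene cannot go below p = 0.1, so none is reported.

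The members and lists were chosen with earlier results of these data known. Full values are given for the MYC network genes and, in each other role, for at most 4 called genes with the smallest adjusted p. Of the other pathway genes, at most 2 that rose and 2 that fell are named in each role. NPM1, NOP58, NOP2 and PPAN were added outside this rule, after their values were seen. One marker of the blood and fibroblast list is not reported here.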

Additional observations from a re-analysis of the deposited data

How the results depend on the processing

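Across 16 alternatives, 15 of the 20 called genes kept their call in all of them, 14 higher and 1 lower, and POLR1B kept it in 9, NPM1 in 14, WDR43 in 10, WDR75 in 5 and RRP1B in 6. Of the genes not called, FBL gained a call without si-SRSF11 replicate 1 and BOP1 under the replicate block. The number of the 41 genes higher was 15 with DESeq2 or library size scaling and 16 with no filter beyond 1 count. With upper quartile scaling or protein-coding genes only it was 17, and with voom 18. The share of all tested genes higher moved too. It was 10.96% with DESeq2, 10.05% with library size scaling, 5.99% with no filter, 12.3% with upper quartile scaling, 14.7% with protein-coding genes only and 12.9% with voom. When 1 library was left out, 14 to 18 of the 41 genes were higher and 1 was lower each time, where 9.43% to 12.7% of all tested genes were higher. At an absolute log2 fold change over 1, 0 were higher and 0 lower. Of the other pathway genes 27 were higher and 4 lower at an adjusted p under 0.01, for which the share of all tested genes was not computed. Over a log2 fold change of 1 these numbers were 0 and 0, and 31 to 45 were higher and 4 to 6 lower when 1 library was left out. The median of the 41 genes was 0.11 with library size scaling and 0.13 to 0.16 when 1 library was left out. SRSF11 ranged from -0.82 to -0.79 when 1 library was left out.

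The study speaks of pairs of samples, but the labels do not say what libraries of the same number share. Deviations from the group means correlated weakly between same-numbered libraries (r = 0.0053, 0.044 and 0.053). Each library had its highest r with its own number. For si-NC replicate 1, however, r was nearly the same with si-SRSF11 replicate 1 (0.0053) and replicate 2 (0.0050). Such values cannot show that libraries were paired. With the replicate block 20 genes were higher and 1 was lower, where 13.6% of all tested genes were higher.

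Reversed signs occurred only in genes that did not pass the test. The log2 fold change of TCOF1 was -0.00094 with DESeq2, -0.029 with library size scaling, -0.0033 with upper quartile scaling, -0.0018 with no filter, -0.0065 with protein-coding genes only and -0.037 to 0.040 when 1 library was left out. That of DDX18 was -0.028 with library size scaling, -0.0019 with upper quartile scaling, -0.00034 with no filter, -0.0051 with protein-coding genes only and -0.027 to 0.051 when 1 library was left out. PPAN ranged from -0.17 to 0.068 when 1 library was left out. The cause was not tested.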
